A study of Mus musculus with 9 samples.

Results

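The regions described here are 783 places in the genome of mouse MLL-AF9 cells where TGIF1 and MEIS1 were both bound after TGIF1 induction, but where the points of strongest binding lay more than 100 bp apart. They were chosen by peak presence and by summit position. All peaks of 8 lists were merged wherever they overlapped by 1 bp or more, which gave 60709 regions. A chosen region held a peak from both TGIF1 4-OHT lists and from all 4 MEIS1 lists and none from either TGIF1 EtOH list. In addition, the smallest distance between a TGIF1 summit and a MEIS1 summit in the replicate 2 libraries of the 4-OHT groups was over 100 bp. The presence rule alone left 3893 regions. Of these, 783 (20.1%, exact 95% interval 18.9 to 21.4%) exceeded the distance and are called separated regions, and the other 3110 are called centred regions. The separated regions made up 1.29% of all merged regions. Without TGIF1 4-OHT replicate 1, the shorter of the 2 induced lists, the same rule took 1630 regions.

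TGIF1 and MEIS1 belong to the same TALE class of homeodomain proteins, and both recognise closely related short DNA sequences. TGIF1 is known as a repressor that recruits histone deacetylases and limits SMAD and retinoid signalling. MEIS1 binds DNA with PBX and HOX partners and sustains self-renewal in leukaemias driven by MLL fusion proteins. Where proteins that can read the same sequence bind one region, their summits can coincide or stand apart, and the summit positions record which.

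The study used bone marrow cells of C57BL/6 mice that were c-kit-positive when transformed with the MLL-AF9 fusion oncogene and that were then transduced with pMIG-TGIF1-ER, an inducible TGIF1 fused to the estrogen receptor. The 4 groups were TGIF1 ChIP after 4-OHT for 20 h, TGIF1 ChIP after EtOH, MEIS1 ChIP after 4-OHT for 20 h and MEIS1 ChIP after EtOH, with 2 libraries each. MLL-AF9 and TGIF1-ER were present in every group, the EtOH controls included. Cells without TGIF1-ER were not analysed here, so effects of 4-OHT and of TGIF1 activity cannot be told apart, and the labels do not say whether the TGIF antibody separates the fusion from the cells' own TGIF1. The IgG sample was not analysed here. The lists give 1 summit per peak and no height or read number. The depth of each library is therefore unknown, and the lists ranged from 592 to 48829 peaks. No label states that replicate libraries were made from independent cultures, so p-values measure only the spread between these libraries, which may be technical. A TGIF1 EtOH list of 2764 or 592 peaks was far shorter than an induced list of 12141 or 26932 peaks, so a missing EtOH peak does not show that TGIF1 was absent. No gene is named, because the positions are on the mm9 build and a gene annotation of that build was not used here.

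The clearest cases were taken from the 518 separated regions (66.2%) that held exactly 1 peak from each of the 6 lists. For each, the smallest of the 8 distances between a TGIF1 4-OHT summit and a MEIS1 summit was found, and the 10 regions with the largest such value were listed. In the first, on chromosome 8 from 72796162 to 72797862 (mm9, as are all positions here), the TGIF1 summits of replicates 1 and 2 lay 1012 and 1007 bp from the summit of MEIS1 4-OHT replicate 2. The other MEIS1 summits lay 12 bp (4-OHT replicate 1), 41 bp (EtOH replicate 1) and 35 bp (EtOH replicate 2) from it. All 4 MEIS1 libraries thus had their summit towards one end of a region of 1701 bp, and both TGIF1 libraries had theirs towards the other end.

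The second region, on chromosome 12 from 76835543 to 76837279, had its TGIF1 summits 910 and 979 bp below the MEIS1 4-OHT replicate 2 summit, on the side of the lower coordinates. Its other MEIS1 summits were within 10 bp of that summit. On chromosome 4 from 108505277 to 108507034, the TGIF1 summits stood 906 and 912 bp away, and the other MEIS1 summits again lay within 12 bp of the first. In 2 of the 10 regions the 8 distances differed least. On chromosome 4 from 131429030 to 131430802 the 8 distances ran from 833 to 844 bp. On chromosome 2 from 167159940 to 167161326 they ran from 832 to 839 bp, with TGIF1 summits 835 and 834 bp from the MEIS1 summit. In both, the replicates of each protein placed their summits at nearly the same base pair.

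Replicates did not always place the TGIF1 summit alike. On chromosome 15 from 78812841 to 78814586 it lay 1035 bp from the MEIS1 summit in TGIF1 replicate 1 and 855 bp in replicate 2. On chromosome 6 from 87799699 to 87801825 it lay 746 bp away in replicate 1 and 1648 bp away in replicate 2. TGIF1 was on the same side of MEIS1 in both replicates there, but at 2 places. On chromosome 3 from 27587909 to 27589908 it was a MEIS1 summit that moved, since that of EtOH replicate 1 lay 194 bp from the summit of 4-OHT replicate 2, beside 3 bp for 4-OHT replicate 1 and 5 bp for EtOH replicate 2. TGIF1 lay on the same side of MEIS1 in all 8 pairs of libraries in all 10, which the choice of large distances in every pair nearly fixes.

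**Figure D1:**
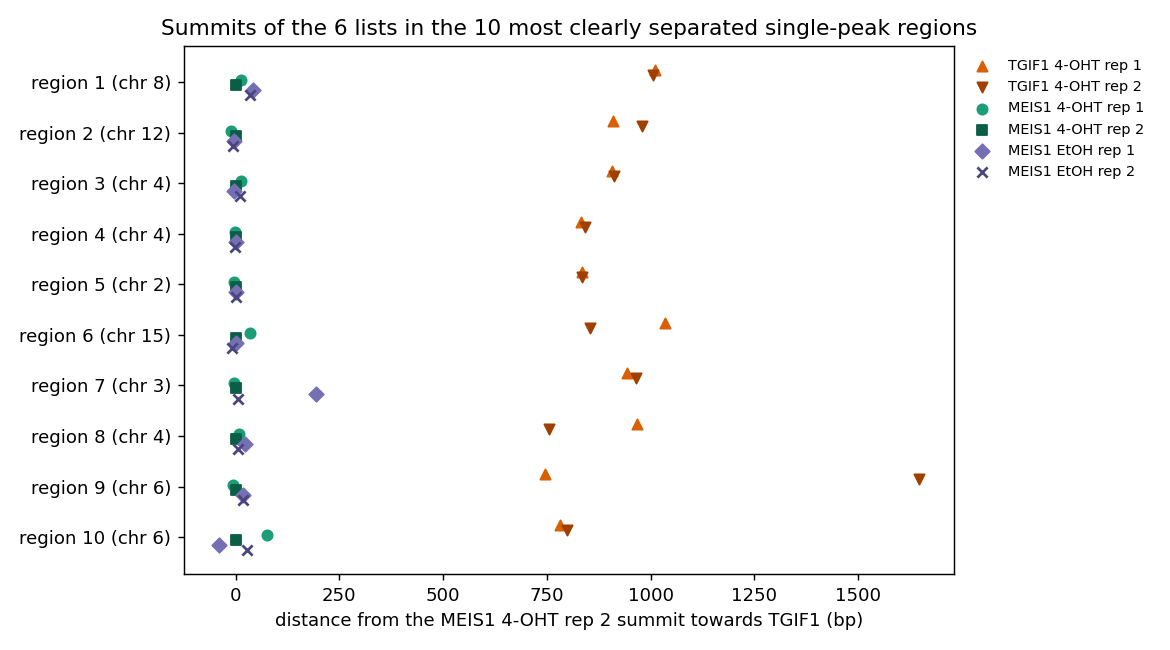
Summit position of each of the 6 lists in the 10 single-peak regions with the largest smallest distance, in bp from the MEIS1 4-OHT replicate 2 summit and turned so that TGIF1 lies to the right. The MEIS1 marks lie within 77 bp of 0 apart from EtOH replicate 1 in the region on chromosome 3 (194 bp), and the TGIF1 marks lie between 746 and 1648 bp.

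Across all 783 regions the distance that chose them, TGIF1 4-OHT replicate 2 to MEIS1 4-OHT replicate 2, had a median of 283 bp, with quartiles of 161 and 473.5 bp and a highest value of 1768 bp. In the centred regions the median was 14 bp, which the rule fixes to be at most 100 bp. Over all 19112 merged regions that held both peaks, 26.6% exceeded 100 bp. The values ran on without a gap at 100 bp: 35 separated regions were within 10 bp above it, and 38 centred regions were within 10 bp below it. The 5 nearest inside, led by chromosome 5 from 36960783 to 36961507 and chromosome 5 from 115965940 to 115966662, had distances of 101 to 102 bp, and the 5 nearest outside, led by chromosome 12 from 88172858 to 88175832, had 99 to 100 bp. Over the 8 pairs the first of those inside gave 94 to 126 bp and the second 71 to 113 bp. The fifth, on chromosome 11 from 3460031 to 3460763, gave 4 to 118 bp, so that its summits nearly met in at least 1 pair.

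The separation was seen again in libraries that the distance rule did not use. In the 3 pairs of TGIF1 4-OHT replicate 1 with a MEIS1 list other than 4-OHT replicate 2, the median distance in the separated regions was 169 bp (MEIS1 4-OHT replicate 1), 158 bp (MEIS1 EtOH replicate 1) and 187 bp (MEIS1 EtOH replicate 2). The centred regions had medians of 23, 23 and 20 bp in the same pairs. The medians of the separated regions were thus lower than the 283 bp of the pair that chose them, and still well above those of the centred regions.

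Counted against 100 bp, 511 of the 783 separated regions (65.3%, exact 95% interval 61.8 to 68.6%) were apart in the replicate 1 pair of the 4-OHT libraries, beside 335 of 3110 centred regions (10.8%). The share over all merged regions with both of these peaks was 21.9%. With MEIS1 EtOH replicate 1 it was 494 separated regions (63.1%), beside 10.1% of centred regions and 21.8% of all. With MEIS1 EtOH replicate 2 it was 563 (71.9%), beside 9.81% of centred regions and 25.2% of all. These intervals cover counting error only. The 3 pairs share a TGIF1 library, so no test over pairs was made. In all 3 the separated regions were apart far more often than the background share, and the centred regions less often.

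Pairs that hold 1 of the 2 lists behind the rule gave higher shares, and they are partly fixed by it. TGIF1 4-OHT replicate 1 was apart from MEIS1 4-OHT replicate 2 in 79.8% of separated regions, with a median of 218 bp and 25.4% over all merged regions with both. TGIF1 4-OHT replicate 2 was apart from MEIS1 4-OHT replicate 1 in 77.4%, with a median of 220 bp and 23.6% over all. Its values with MEIS1 EtOH replicate 1 were 75.4% and 198 bp, with 23.2% over all, and with MEIS1 EtOH replicate 2 they were 85.6% and 247 bp, with 26.5% over all.

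**Figure D2:**
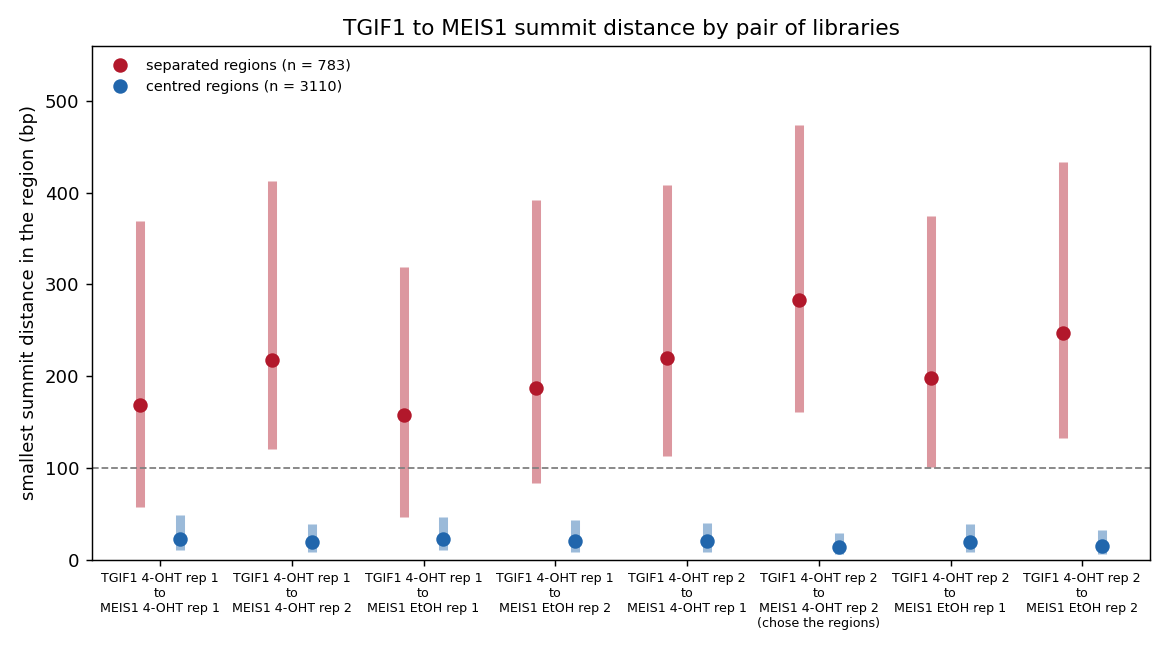
Smallest TGIF1 to MEIS1 summit distance per region, in bp, for each TGIF1 4-OHT library paired with each MEIS1 library, as the median (point) and the quartiles (bar) over 783 separated and 3110 centred regions. The dashed line marks 100 bp. Medians of the separated regions lie between 158 and 283 bp and those of the centred regions between 14 and 23 bp.

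The regions fell into groups by how often the separation recurred. Of the 783, 361 (46.1%, exact 95% interval 42.6 to 49.7%) were apart in all 8 pairs, and 325 (41.5%) were apart and had TGIF1 on the same side in all 8. Much of this is fixed by the choice of regions, since 1 of the 8 pairs chose them and 4 share a list with it. In all 7 pairs other than the one behind the rule, 3 centred regions (0.0965%) were apart. Among the 3 pairs that held neither list behind the rule, 392 regions (50.1%) were apart in all, 146 (18.6%) in 2, 100 (12.8%) in 1 and 145 (18.5%) in none. For those 145 regions the separation was seen only in pairs with a library behind the rule. Among the centred regions, 2615 of 3110 (84.1%) were apart in none of these 3 pairs and 167 (5.37%) in all 3. The centred regions were chosen the opposite way, which widens the contrast. Taken singly, the 8 pairs were apart in 21.8 to 26.6% of all merged regions with both peaks. A share over all merged regions for several pairs at once is not given.

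Summits of the same protein lay much closer together in the same regions. The smallest distance between the TGIF1 4-OHT replicates had a median of 19 bp in separated regions and 14 bp in centred regions. Between the MEIS1 4-OHT replicates it was 18 bp in separated regions, and between the MEIS1 EtOH replicates 17 bp. The MEIS1 4-OHT and EtOH libraries of number 1 were 20 bp apart and those of number 2 were 10 bp apart. Each of these medians was below every median between the 2 proteins. The rule partly fixes this, since it chose regions by a large distance between TGIF1 and MEIS1 summits.

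Same-protein summits were nevertheless placed less tightly in the separated regions than in the centred ones. Distances over 100 bp between the TGIF1 4-OHT replicates occurred at 149 separated regions (19.0%) and at 5.56% of centred regions, with 8.1% over all merged regions with both. For the MEIS1 4-OHT replicates the shares were 13.9% of separated regions, 4.12% of centred regions and 4.67% of all, and the MEIS1 EtOH replicates were that far apart at 94 separated regions, 3.57% of centred regions and 5.82% of all. Between MEIS1 4-OHT and MEIS1 EtOH this was seen at 92 separated regions (11.7%), 4.28% of centred regions and 4.55% of all for number 1. For number 2 it was 86 separated regions, 2.51% of centred regions and 6.43% of all. Disagreement within a protein was thus commoner in the separated regions in all 5 comparisons, yet stayed below the lowest share between the proteins, 63.1%. The rule partly fixes the excess where a comparison holds TGIF1 4-OHT replicate 2 or MEIS1 4-OHT replicate 2. A displaced summit in either list can by itself make a region separated. Neither list enters the comparison of the MEIS1 EtOH replicates or that of MEIS1 4-OHT with MEIS1 EtOH for number 1. The excess was seen there too, at 94 and 92 of 783 separated regions, against 3.57% and 4.28% of centred regions. These comparisons are still not free of the rule, which partly fixes the length of the regions. The median length was 1203 bp for separated and 817.5 bp for centred regions. The part of region length and of the number of peaks in the excess was not tested.

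Taking the 2 replicate 2 summits as fixed points showed where the remaining libraries placed theirs. TGIF1 4-OHT replicate 1 had its nearest summit closer to the TGIF1 point at 651 of 783 regions (83.1%) and closer to the MEIS1 point at 131 (16.7%). Its median distance was 21 bp to the TGIF1 point and 226 bp to the MEIS1 point. The MEIS1 libraries did the reverse. MEIS1 4-OHT replicate 1 was closer to the MEIS1 point at 666 regions (85.1%), MEIS1 EtOH replicate 1 at 657 (83.9%) and MEIS1 EtOH replicate 2 at 694 (88.6%). Each library therefore sided with its own protein in more than 4 of 5 regions, and this held for MEIS1 in both treatments.

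**Figure D3:**
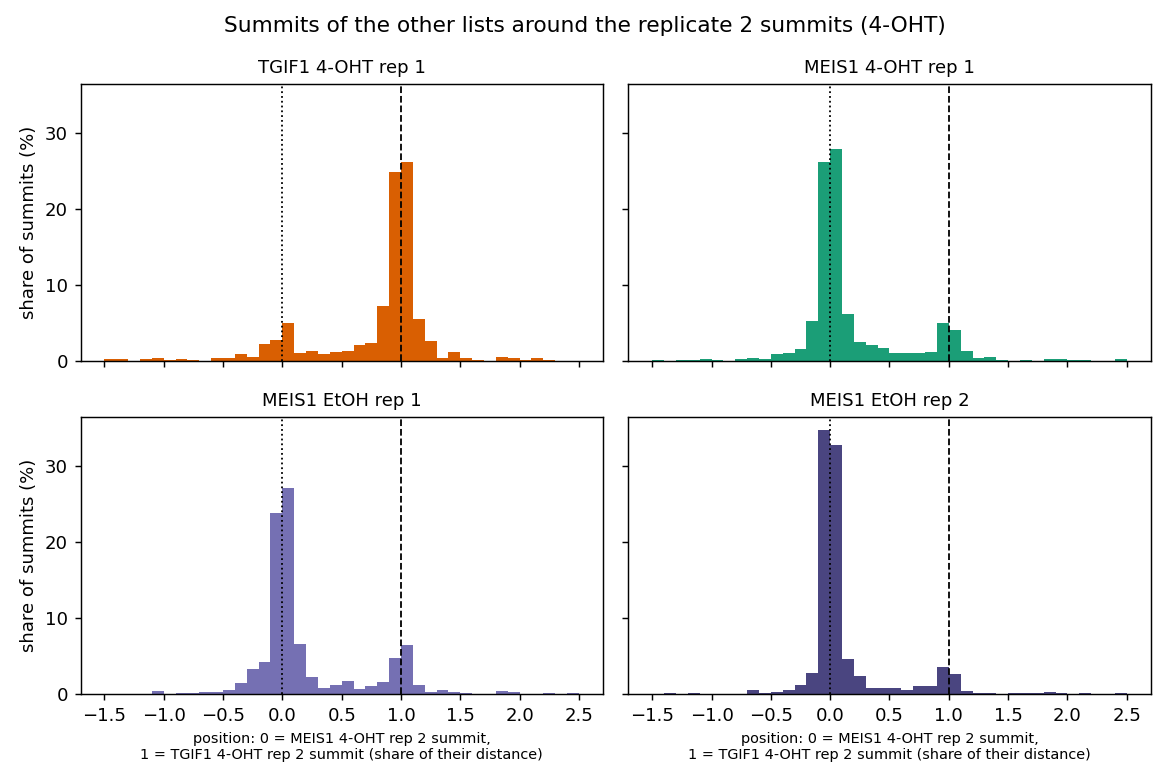
Position of the summits of 4 libraries along the line from the MEIS1 4-OHT replicate 2 summit (0) to the TGIF1 4-OHT replicate 2 summit (1), as a share of all summits of that library in the 783 separated regions, in bins of 0.1. TGIF1 4-OHT replicate 1 peaks at 1 with a small second mode at 0, and the 3 MEIS1 libraries peak at 0 with a small second mode at 1; summits outside the range from -1.5 to 2.5 are not drawn.

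Some libraries marked both points. A list with at least 2 peaks in a region can place a summit at each, which a list with 1 long peak cannot, because only 1 summit is recorded per peak. MEIS1 EtOH replicate 1, the list with the shortest MEIS1 peaks, had 2 or more peaks at 149 separated regions, and at 59 of these (39.6%) it had a summit within 50 bp of the MEIS1 point and another within 50 bp of the TGIF1 point. The same was seen at 30 of 93 regions for MEIS1 4-OHT replicate 1, at 9 of 55 for MEIS1 EtOH replicate 2 and at 20 of 72 for TGIF1 4-OHT replicate 1. A MEIS1 summit within 50 bp of the TGIF1 point was found at 131 regions (16.7%) in MEIS1 EtOH replicate 1, 104 (13.3%) in MEIS1 4-OHT replicate 1 and 65 (8.30%) in MEIS1 EtOH replicate 2. At those regions a MEIS1 summit stood within 50 bp of a TGIF1 summit seen after induction. In the EtOH libraries this was the case in cells without induction. No such shares are given for centred or all merged regions, so whether the counts here are high or low cannot be said.

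Peaks of one protein often reached over the summit of the other. The merging by overlap nearly fixes that the TGIF1 and MEIS1 peaks behind the distance overlap (780 of 783 separated regions), so this was read from the replicate 1 libraries and MEIS1 EtOH replicate 2. The TGIF1 4-OHT replicate 1 summit fell inside a MEIS1 4-OHT replicate 1 peak at 585 separated regions (74.7%), against 96.3% of centred regions, and inside a peak of the longer list MEIS1 EtOH replicate 2 at 757 (96.7%), against 99.4%. In the other direction, the MEIS1 4-OHT replicate 1 summit fell inside the TGIF1 4-OHT replicate 1 peak at 543 separated regions (69.3%), against 96.3% of centred regions. Each replicate 1 summit of the 4-OHT libraries lay inside the other protein's peak at 64.0% of separated and 95.2% of centred regions.

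TGIF1 stood at higher coordinates than MEIS1 at 404 regions (51.6%, exact 95% interval 48.0 to 55.1%) and at lower coordinates at 379. The side was shared between replicate pairs. In the replicate 1 pair TGIF1 was on the side seen in the replicate 2 pair at 631 of 783 separated regions (80.6%, exact 95% interval 77.6 to 83.3%), beside 58.4% of centred regions, where the distances are small. At the 511 regions that were apart in both pairs, 452 (88.5%) kept the side. At the other 272 the share was 65.8%.

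Regions with larger distances were not more repeatable throughout. The share apart in the replicate 1 pair was 51.5% (exact 95% interval 43.7 to 59.2%) for the 171 regions with a replicate 2 distance over 100 to 150 bp. It was 68.9% for the 103 over 150 to 200 bp and 75.4% for the 142 over 200 to 300 bp. Beyond that it was 67.5% for the 191 over 300 to 500 bp and 65.9% for the 176 over 500 bp. The share that kept its side lay between 78.4 and 83.1% in all 5 classes, with overlapping intervals. The median distance in the replicate 1 pair was 104, 160, 229, 319 and 450 bp over the 5 classes, which is within the limits of the class in the first 4 and below them in the widest.

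**Figure D4:**
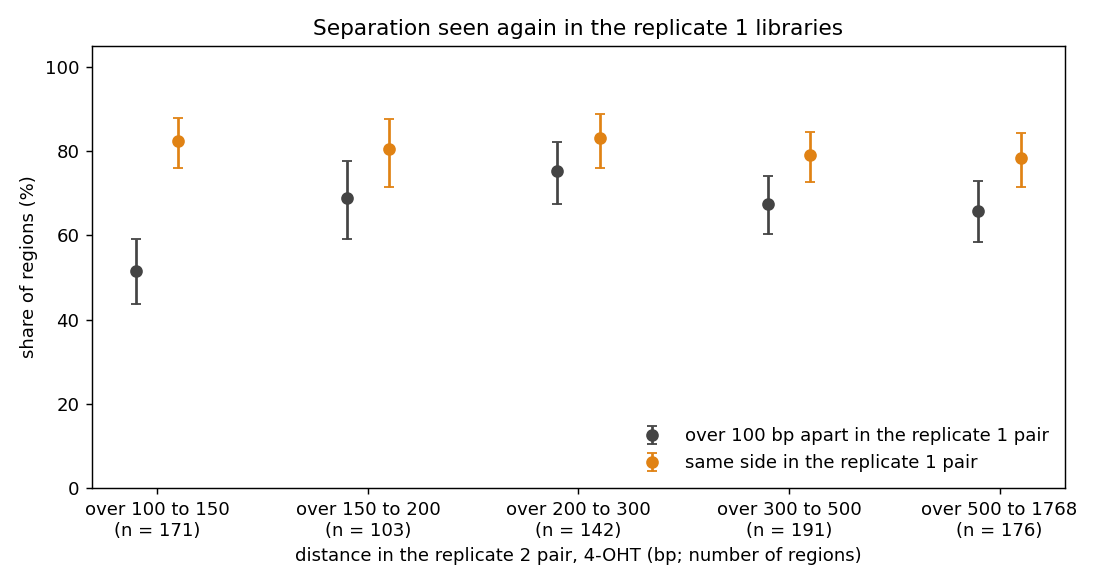
Share of separated regions (%) that were more than 100 bp apart, and that had TGIF1 on the same side of MEIS1, in the replicate 1 pair of the 4-OHT libraries, by the distance in the replicate 2 pair (bp). Bars are exact 95% intervals, which cover counting error only. The share apart is lowest (51.5%) in the class over 100 to 150 bp, and the share on the same side is 78.4 to 83.1% in all classes.

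Classes with larger distances held longer regions, and in the 2 widest a smaller share of regions had a single peak per list. Both summits lie inside the region, so the distance that set the classes partly fixes the lengths. The same holds for the lengths of separated against centred regions. The median region length was 887 bp in the class over 100 to 150 bp and 1555.5 bp in the class over 500 bp. Regions with exactly 1 peak in each of the 6 lists made up 81.3% of the nearest class, 60.7% of the class over 300 to 500 bp and 38.6% of the widest. Over all separated regions the length ranged from 564 to 5771 bp with a median of 1203 bp, beside a median of 817.5 bp for centred regions and 614 bp for all merged regions. The longest, on chromosome 1 from 85322856 to 85328626, had a distance of 688 bp in the replicate 2 pair and of 11 bp in the closest of the 8 pairs. The next, on chromosome 13 from 114404762 to 114409110, had distances of 127 to 381 bp. Only 15 separated regions (1.92%) were over 3 kb, beside 0.579% of centred regions.

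Peaks in separated regions were also longer within each library. The median peak length in the 4 lists that did not give the distance was 464 bp in separated and 425 bp in centred regions for TGIF1 4-OHT replicate 1, and 531 against 476 bp for MEIS1 4-OHT replicate 1. It was 463 against 410 bp for MEIS1 EtOH replicate 1 and 994.5 against 751 bp for MEIS1 EtOH replicate 2. The mean log2 ratio was 0.22 (range 0.13 to 0.41), higher in 4 of 4 libraries. The two-sided exact sign permutation p was 0.125, the smallest that 4 libraries can give. The 4 libraries cover the same regions, so they are not independent repeats of this comparison. Longer peaks leave more room for summits to stand apart, so the rule partly fixes the direction in all of them. The part of peak length in the separation was not tested.

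Regions with 2 or more peaks of a list were more frequent among separated regions in 5 of the 6 lists. The widest difference was in MEIS1 EtOH replicate 1, with 19.0% of separated and 7.97% of centred regions. In MEIS1 4-OHT replicate 2, whose summits enter the distance, it was 6.64% of separated and 7.11% of centred regions. Summits of all 6 lists also lay further from the middle of the merged region. For TGIF1 4-OHT replicate 1 the median offset was 30.4% of the distance from middle to end in separated and 15.1% in centred regions, and for MEIS1 4-OHT replicate 1 it was 28.4% and 14.1%. Summits chosen to stand apart cannot both be in the middle, so the rule fixes much of this difference.

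Whether MEIS1 itself differed between induced and control cells at these regions was compared over libraries. The median distance from the TGIF1 4-OHT replicate 1 summit was 169 and 218 bp for the MEIS1 4-OHT libraries, against 158 and 187 bp for the MEIS1 EtOH libraries, replicate 1 before replicate 2. The groups overlapped. The means were 193.5 ± 34.6 bp under 4-OHT and 172.5 ± 20.5 bp under EtOH (SD, n = 2 each), a difference of 21 bp (two-sided exact permutation p = 0.667). With 2 against 2 libraries p cannot be below 0.333. MEIS1 4-OHT replicate 2 is a list the rule used for a large distance from TGIF1, which raises its value and the 4-OHT mean. Leaving out that list gave a difference of 55.5 bp, but MEIS1 4-OHT replicate 1 then chose the regions in its place. That value is therefore not free of the rule. Leaving out MEIS1 EtOH replicate 1 gave 7.5 bp over the regions then chosen.

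Region by region in the replicate 1 libraries, the MEIS1 summit lay further from TGIF1 under 4-OHT than under EtOH at 394 of the 783 separated regions (50.3%) and closer at 371 (47.4%), with a median difference of 1 bp. In the replicate 2 libraries it was further at 436 (55.7%) and closer at 325 (41.5%), with a median difference of 3 bp. The rule required the MEIS1 4-OHT replicate 2 summit to be far from TGIF1, which favours this direction. In the centred regions, chosen the opposite way, it was further at 45.8% and closer at 50.1% for number 2, with a median difference of -1 bp. The MEIS1 distance from TGIF1 differed by at most 20 bp between treatments at 46.5% of separated regions for number 1 and at 67.2% for number 2. This is a difference of smallest distances, so a summit on the other side of TGIF1 can count as alike. In the centred regions these shares were 65.9% and 82.3%.

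The number of MEIS1 peaks per separated region averaged 1.13 and 1.07 in the 4-OHT libraries, against 1.20 and 1.08 in the EtOH libraries. The group means were 1.10 ± 0.039 and 1.14 ± 0.090 (SD, n = 2 each), with overlapping values and a two-sided exact permutation p of 0.667. MEIS1 peaks in separated regions were longer than in the list as a whole, by log2 ratios of 0.26 and 0.72 under 4-OHT, against 0.36 and 0.65 under EtOH. The means were 0.49 ± 0.32 and 0.50 ± 0.21 (SD, n = 2 each; two-sided exact permutation p = 1). The values of the treatments overlapped for both measures. MEIS1 4-OHT replicate 2 is a list the rule used, so the rule partly fixes its value in each measure. The difference in peaks per region, -0.040, was about the SD of the 4-OHT libraries and below that of the EtOH libraries, and the difference in length, -0.012 (log2), was below both SDs. The sign for peaks per region turned when MEIS1 EtOH replicate 1 was left out (0.020). For length it turned when MEIS1 4-OHT replicate 1 (0.24) or MEIS1 EtOH replicate 2 (0.14, both log2) was left out.

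**Figure D5:**
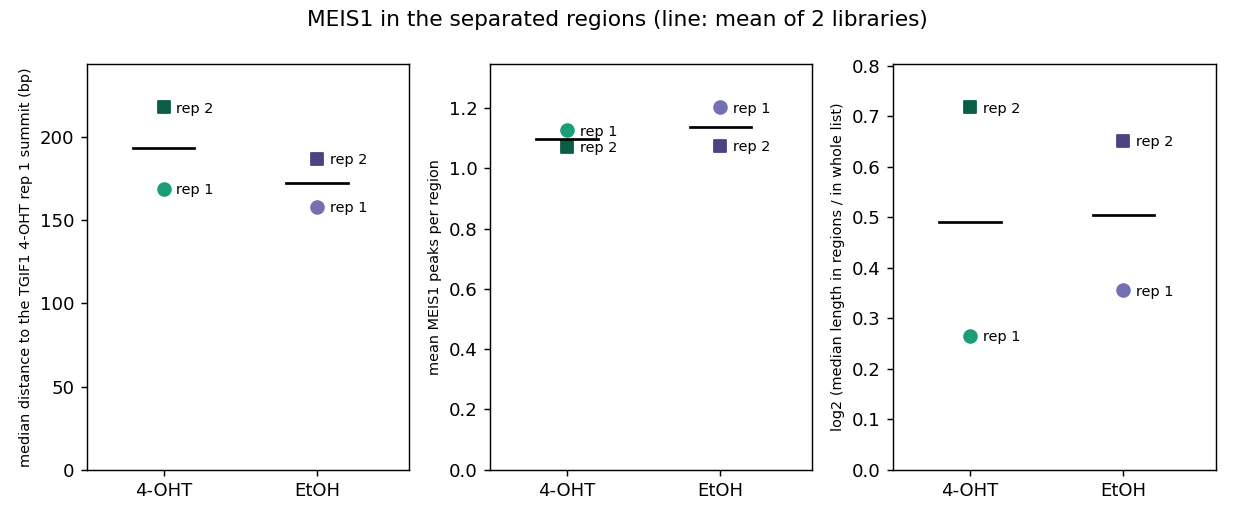
MEIS1 values of each library in the separated regions under 4-OHT and EtOH: the median distance to the TGIF1 4-OHT replicate 1 summit (bp), the mean number of MEIS1 peaks per region, and the log2 ratio of the median peak length in the regions to that of the whole list. Points are single libraries and lines are means of 2. The treatments overlap in all 3 panels. MEIS1 4-OHT replicate 2 helped choose the regions, which partly fixes its values.

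Separated summits were also found where TGIF1 had a peak in control cells. Of the 1230 regions that held all 6 lists and also a TGIF1 EtOH peak, 250 (20.3%, exact 95% interval 18.1 to 22.7%) exceeded 100 bp in the replicate 2 pair, next to the 20.1% that defined the separated regions. In the replicate 1 pair of the 4-OHT libraries, 21.7% (exact 95% interval 20.4 to 23.1%) of the 3893 regions without a TGIF1 EtOH peak were apart, and 19.2% (17.0 to 21.5%) of those with one. In the pairs of TGIF1 4-OHT replicate 1 with the MEIS1 EtOH lists the shares were 20.8% and 22.3% without a TGIF1 EtOH peak, and 17.8% and 18.8% with one. The intervals overlapped in each pair, but narrowly for MEIS1 EtOH replicate 2 (21.0 to 23.6% without a TGIF1 EtOH peak, 16.6 to 21.1% with one). In the pairs given here of TGIF1 4-OHT replicate 1, the share was lower where a TGIF1 EtOH peak was present. It was not lower in the replicate 2 pair. This difference was not tested.

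Separated regions were found on all 19 autosomes and on X. As a share of the 3893 regions with the same lists, they ranged from 13.0% on chromosome 9 (28 of 216, exact 95% interval 8.79 to 18.2%) to 26.8% on chromosome 15 (63 of 235, exact 95% interval 21.3 to 33.0%). These extremes were picked from 20 chromosomes after their values were seen. Without chromosome 15, 65.8% of the remaining separated regions were apart in the replicate 1 pair, close to the 65.3% with it. The nearest other region with the same 6 lists lay at a median of 60.5 kb from a separated region and 73.4 kb from a centred one, and within 10 kb at 133 separated (17.0%) and 13.8% of centred regions.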

How the data were processed

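ChIP-seq peak lists of 8 libraries were used. Sonicated fragments averaged 300 bp and E. coli DNA was added to bring the precipitated DNA up to 2 ng, per the labels' protocols. Bowtie 0.12.7 and build mm9 are named per the submitters' processing notes, and MACS 1.4.2 per the file headers of the MEIS1 4-OHT replicate 2 list. For the calling threshold, the control and any filter, the sources used here give nothing. The deposited lists hold chromosome, start, end, length and summit, in bp, for single libraries. The summit was read as start + summit - 1.

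Peaks were merged at 1 bp of overlap, and the result equalled that of bedtools 2.31.1 in all 60709 regions. Distances are the smallest between any summits of 2 lists in a region, so a list with more peaks can only come closer. Groups were compared over libraries by exact permutation with the threshold 0.05, and intervals of shares are Clopper-Pearson. The code was tested on simulated data. Python 3.11.15, numpy 2.4.6, pandas 2.3.3, scipy 1.17.1 and matplotlib 3.10.9 were used.

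The members, tests and region rule were chosen with earlier results of these data known. The regions named are the 10 single-peak members with the largest smallest distance over 8 pairs, the 5 longest, and the 5 on each side of 100 bp, and some of each are given. A planned search for motifs and for members at listed genes was not run, as sequence and annotation of mm9 were not used here. The alternatives were other distance limits, a larger merging overlap, the longer 50% of each list, regions with 1 peak per list, summits of the longest peaks, distances from replicate 1 or from both, regions up to 3 kb, each library left out and, chosen after seeing the data, no chromosome 15.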

Additional observations from a re-analysis of the deposited data

How the results depend on the processing

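The number of separated regions depended on the rule: it was 509 with a limit of 200 bp, 430 with the longer 50% of each list, 518 with 1 peak per list and 511 with both pairs past 100 bp, but 1134 with a limit of 50 bp and 915 with the summits of the longest peaks, and without single libraries 784 to 1630. The share apart in the replicate 1 pair was 70.2% with a limit of 50 bp and 59.9% with 200 bp (the limit then applies to both pairs), 69.5% with 1 peak per list and 69.4% with the summits of the longest peaks. Leaving out single libraries gave 64.8 to 78.7%, highest where a replicate 2 list was left out and its replicate 1 chose the regions. The share on the same side was 87.8% with 1 peak per list, and 79.8 to 91.1% without single libraries. Neither share has a value where the replicate 1 pair itself chose the regions or one of its lists was left out. The difference in MEIS1 peak length turned to 0.0026 (log2) with a limit of 200 bp and ran from -0.21 to 0.24 without single libraries. For MEIS1 peaks per region the range was -0.11 to 0.020, and for the MEIS1 distance from TGIF1 it was 7.5 to 55.5 bp. Peak length against centred regions kept its sign, at 0.15 to 0.26 without single libraries and 0.11 to 0.26 in the other alternatives. The rule partly fixes that sign. No test could pass 0.05 with so few libraries, so this says nothing of significance. The causes were not tested.

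Nothing in the labels says that replicate numbers pair the libraries. With the number as a replicate block the differences were -0.012 (log2 length), -0.040 (peaks per region) and 21 bp (distance), with exact sign permutation p of 1, 0.5 and 0.5, where 0.5 is the smallest that 2 pairs can give.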
